A study of Homo sapiens with 36 samples.

Results

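Full-length HIF-1α was compared with full-length HIF-2α in the same cells, from 6 of the 36 samples in the series. These were the 3 anti-V5 Cut&Run samples of cells that express exogenous HIF-1α and the 3 of cells that express exogenous HIF-2α. They were chosen by their titles, so that neither the knock-in line nor the domain swaps entered either group. Cut&Run tethers a nuclease to chromatin through an antibody, here against the V5 tag, and sequences the short fragments that are released around the bound protein. Both groups were 786-O cells, which come from a human clear cell renal carcinoma. These cells have no working VHL and, through a truncating mutation, no functional HIF-1α, and still make their own untagged HIF-2α. Exogenous HIF-1α was thus added to cells without it, and exogenous HIF-2α to cells that already had it. Each protein carried V5 and HaloTag at its N terminus, was driven by the weak L30 promoter and came from a stable line selected with puromycin. A peak list called against the IgG sample of the same line and replicate was used for each sample. Of the 25783 regions formed by merging the 18 lists of the series, 498 were left out because at least 2 lists of untagged wild-type (WT) cells called them, and 23256 of the remaining 25285 were called in at least 1 of the 6 samples.

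The hypoxia-inducible factors are made of an α subunit, of which HIF-1α and HIF-2α are the best studied, and the partner HIF-1β. When oxygen is low or VHL is lost the α subunits escape degradation, form the dimer, and bind a short DNA motif, the hypoxia response element (HRE). Both recognize the same core. In clear cell renal carcinoma HIF-2α is regarded as the main driver, while HIF-1α is best known for glycolytic target genes, and the comparison asks which sites the whole proteins occupy when each is expressed from the same promoter.

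The core of the HRE was searched as ACGTG or GCGTG on both strands. To show the DNA under the sites described below, the core nearest to the summit is given with 20 bases on each side, read 5′ to 3′ from the plus strand of hg38, with the core in capitals. A core read from the minus strand therefore appears as CACGT or CACGC. The first pair of sites was called with HIF-1α and not with HIF-2α, the next 3 were called with both, and the last pair was called with HIF-2α and not with HIF-1α.
CARNMT1 promoter, chr9:75028504-75028548: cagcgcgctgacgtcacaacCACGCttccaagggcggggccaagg
CA9 promoter, chr9:35673890-35673934: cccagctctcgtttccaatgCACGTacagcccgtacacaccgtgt
MEAK7 intron, chr16:84501308-84501352: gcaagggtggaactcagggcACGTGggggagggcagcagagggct
PGK1 promoter, chrX:78104045-78104089: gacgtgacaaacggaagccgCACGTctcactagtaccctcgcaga
EGLN3 intron, chr14:34013429-34013473: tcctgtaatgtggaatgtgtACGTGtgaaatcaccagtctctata
ANKFN1 intron, chr17:56165185-56165229: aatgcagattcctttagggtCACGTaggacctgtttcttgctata
LPIN1 upstream region, chr2:11676175-11676219: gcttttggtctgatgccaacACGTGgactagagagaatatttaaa

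The distance from the core to the summit was 32 bp at CARNMT1, 34 bp at MEAK7 and 92 bp at PGK1. It was 139 bp at CA9, 153 bp at EGLN3, 85 bp at ANKFN1 and 124 bp at LPIN1. Only regions that hold a core can be shown in this way, so its presence at these sites was given by the choice. Its distance from the summit varied. Over all 23256 regions, 25.0% had a core within 50 bp of the summit, against 14.3% in equally wide windows placed 1 kb away on either side. A match describes the sequence only and is not evidence that the protein contacts it.

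The 3 HIF-1α lists held 15058, 20572 and 15909 peaks for replicates 1, 2 and 3, and the 3 HIF-2α lists held 6590, 20651 and 5906. HIF-2α replicate 2 was as long as the longest HIF-1α list, and the other HIF-2α lists were shorter than every HIF-1α list. Depth, taken as the lowest background in a list, was 0.409, 0.384 and 0.296 fragments per base with HIF-1α and 0.327, 0.536 and 0.253 with HIF-2α, so that the groups overlapped in depth. List length differed by 0.87 on the log2 scale (HIF-1α over HIF-2α, exact permutation p = 0.4). A called peak depends on depth, on background and on the amount of tagged protein per cell, which the lists do not give, so a shorter list and weaker binding cannot be told apart. All comparisons were therefore made on the full lists and again on lists of equal length, the 5906 peaks of each sample with the lowest p-value. The replicates are not stated to be separate cultures, and p-values measure the spread between these samples, which may be technical.

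First, the location of the peaks was compared (plot of location and sequence per sample). HIF-1α had a larger share of its peaks at promoters than HIF-2α in every sample, with both list lengths. A promoter peak had its summit within 1 kb of the transcription start site (TSS) of a protein-coding gene. In the full lists the promoter share was 33.1%, 28.3% and 30.9% with HIF-1α and 25.1%, 25.2% and 25.3% with HIF-2α. The lowest HIF-1α sample was above the highest HIF-2α sample, and the HIF-2α samples hardly differed among themselves although the length of their lists differed widely. The means were 30.8 ± 2.36% and 25.2 ± 0.0693% (SD, n = 3 each). Wilson 95% intervals of single samples were 32.3 to 33.8%, 27.7 to 29.0% and 30.2 to 31.6% with HIF-1α and 24.1 to 26.2%, 24.6 to 25.8% and 24.2 to 26.4% with HIF-2α, and cover counting error only. The difference was 5.55 percentage points, with an exact two-sided permutation p of 0.100 (adjusted p = 0.267 over 8 measures), and a p of 0.100 is the smallest that 3 against 3 samples can give.

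With lists of equal length the promoter share was 37.0%, 33.4% and 33.9% with HIF-1α and 26.3%, 27.6% and 25.3% with HIF-2α. The gap between the groups was wider than in the full lists, at 8.38 percentage points (exact permutation p = 0.100, adjusted p = 0.120 over 6 measures). Within replicate numbers 1, 2 and 3 it was 10.7, 5.79 and 8.65 points. Replicate 2, where the full lists were equally long, thus differed in the same direction as the others. The promoter share was higher in each shortened list than in its full list, and HIF-2α replicates 1 and 3 lost few or no peaks. Equal length is therefore not equal stringency, and part of the wider gap can come from this uneven cut. In replicate 2, where both lists were cut alike, the gap was 3.16 points in the full lists and 5.79 points at equal length.

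Remote peaks, with a summit more than 10 kb from any such TSS, were the counterpart. They made up 47.9%, 52.4% and 50.2% of the full HIF-1α lists and 55.6%, 56.2% and 55.7% of the HIF-2α lists. In lists of equal length the values were 45.0%, 47.4% and 47.8% against 54.5%, 53.6% and 55.7%, a difference of −7.87 points (exact permutation p = 0.100). No HIF-1α sample reached the lowest HIF-2α sample with either list length. The median distance from summit to TSS was 6384, 8400 and 8538 bp with HIF-1α and 13272, 12710 and 14261 bp with HIF-2α in the lists of equal length.

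**Figure D1:**
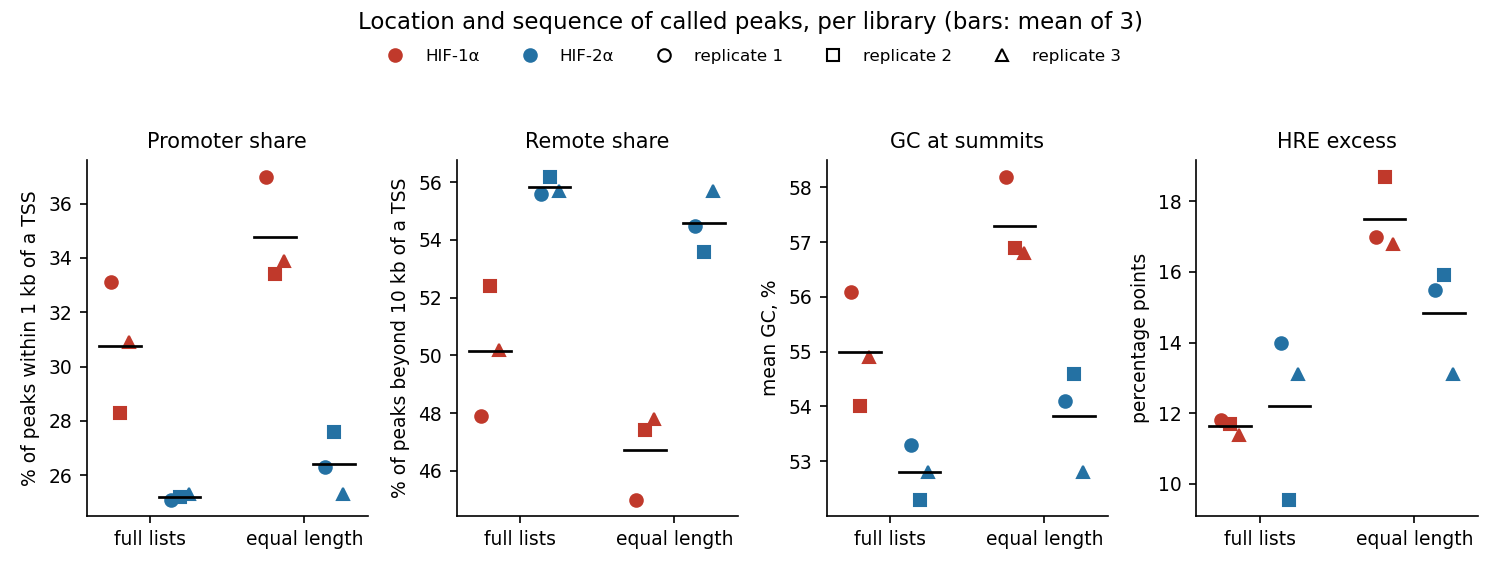
Share of peaks within 1 kb of a TSS, share beyond 10 kb, mean GC content around summits and HRE excess (percentage points over flanking windows), for full lists and lists of equal length. Points are samples, with HIF-1α in red and HIF-2α in blue and one marker shape for each replicate number, bars are means of 3, and no vertical axis starts at 0. Promoter share and GC are higher in every HIF-1α sample with both list lengths, while the order of the HRE excess changes between them.

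The sequence around the summits differed too. Mean GC content was 58.2%, 56.9% and 56.8% with HIF-1α and 54.1%, 54.6% and 52.8% with HIF-2α in lists of equal length, a difference of 3.44 points (exact permutation p = 0.100). Every HIF-1α sample was richer in GC than every HIF-2α sample. In the same lists 33.2%, 34.4% and 32.4% of HIF-1α summits and 29.7%, 30.0% and 27.6% of HIF-2α summits had an HRE core within 50 bp. After subtraction of the flanking windows the HRE excess was 17.0, 18.7 and 16.8 points with HIF-1α and 15.5, 15.9 and 13.1 points with HIF-2α, a difference of 2.70 (exact permutation p = 0.100). The full lists gave the opposite order, with 11.8, 11.7 and 11.4 points against 14.0, 9.56 and 13.1 (difference −0.593, exact permutation p = 0.700). HIF-2α replicate 2, the longest HIF-2α list, was the lowest of all 6 in the full lists, so the direction of the HRE excess depended on list length.

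AP-1 sites, TGACTCA or TGAGTCA on both strands, mark open remote elements in many cell types and served as a second motif. Their excess differed by −0.152 points at equal length (exact permutation p = 0.8) and by −0.470 in the full lists (p = 0.3). Averaged over both proteins, the called regions of samples of the same protein resembled each other more than those of different proteins. In the full lists this came from HIF-1α alone. The Jaccard index, the shared fraction of the regions called in either of a pair, averaged 0.534 within and 0.441 between proteins in lists of equal length (difference 0.0929, exact permutation p = 0.100) and 0.453 and 0.372 in the full lists (0.0819, p = 0.2). Within HIF-1α and within HIF-2α it was 0.571 and 0.496 at equal length. In the full lists it was 0.561 and 0.346, so HIF-2α samples resembled each other less than samples of different proteins did.

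Next, regions were sorted by the samples that called them (grid of calls). A region was HIF-1α-only if all 3 HIF-1α samples and no HIF-2α sample called it, HIF-2α-only in the reverse case, and shared if all 6 called it. The full lists gave 966 HIF-1α-only regions, 4.15% of the 23256, 44 HIF-2α-only regions (0.189%) and 2854 shared regions (12.3%). The lists of equal length, with 10791 regions in all, gave 390 (3.61%), 207 (1.92%) and 2023 (18.7%). The imbalance between the isoform-only classes was thus much smaller at equal length. The full counts rested on single samples: without HIF-2α replicate 2 there were 3662 HIF-1α-only regions, and without HIF-1α replicates 1 and 3 there were 1872 and 1742, while HIF-2α-only regions numbered 188, 197 and 84 without HIF-2α replicates 1 and 3 and HIF-1α replicate 2. A further 2696 regions were called in all HIF-1α samples and in HIF-2α replicate 2 alone, against 52 and 55 for HIF-2α replicates 1 and 3. Not called does not mean not bound, and only 80 regions were HIF-1α-only and 24 HIF-2α-only with both list lengths.

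**Figure D2:**
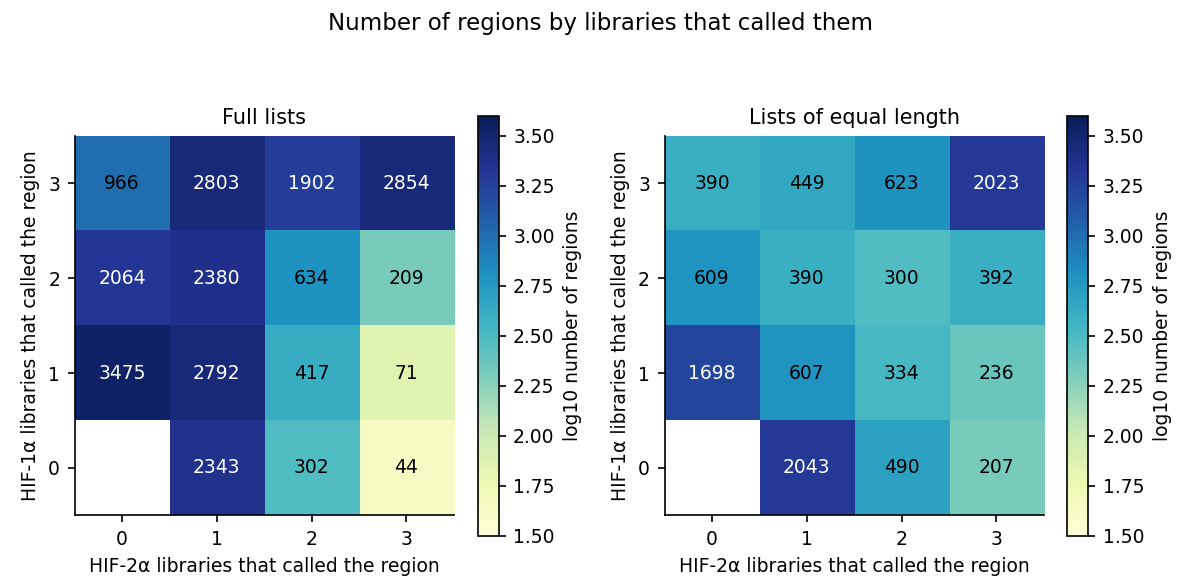
Number of regions by how many of the 3 HIF-1α and of the 3 HIF-2α samples called them, for full lists and lists of equal length. The corner cells hold the 966 HIF-1α-only, 44 HIF-2α-only and 2854 shared regions of the full lists and the 390, 207 and 2023 of the lists of equal length.

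The 2 isoform-only classes lay in different parts of the genome (stacked bars of distance by class). In lists of equal length 45.4% of the HIF-1α-only regions (177 of 390) were at promoters, 11.6% of the HIF-2α-only regions (24 of 207) and 29.5% of the shared regions (597 of 2023). The share beyond 10 kb was 37.2%, 70.0% and 51.1% in the same order. The median distance to a TSS was 2061 bp for HIF-1α-only, 11071 bp for shared and 30848 bp for HIF-2α-only regions, so that shared regions fell between the others on each measure of location. The regions that were isoform-only with both list lengths were further apart: 37 of 80 HIF-1α-only regions (46.2%) were promoters and 0 of 24 HIF-2α-only regions, which allows a share of up to 12.5%. Many regions of these classes at equal length were called with the other protein in the full lists. Of the 207 HIF-2α-only regions, 80 were shared in the full lists and 103 were called there by some HIF-1α samples. Of the 390 HIF-1α-only regions, 310 were called there by some HIF-2α samples. These classes were chosen by their calls, and their locations are a description without a test.

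The classes also differed in base composition and motif content. Mean GC was 59.5% at HIF-1α-only and 47.8% at HIF-2α-only regions of the lists of equal length. An HRE core lay within 50 bp of the summit in 35.4% of the former (18.8% in flanks), 18.4% of the latter (10.4% in flanks) and 34.1% of shared regions (15.1% in flanks). HIF-2α-only regions were thus the poorest class in HRE cores at the summit. AP-1 sites were about as frequent in HIF-1α-only regions (7.18%) as in HIF-2α-only regions (7.25%).

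**Figure D3:**
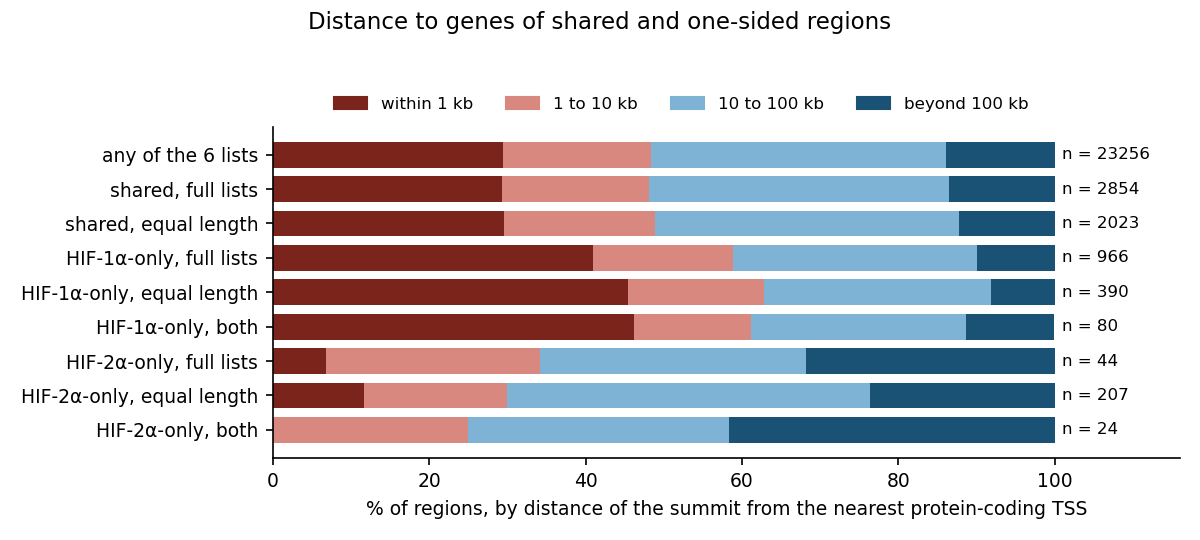
Stacked bars of the percent of regions with a summit within 1 kb of a TSS, at 1 to 10 kb, at 10 to 100 kb and beyond 100 kb, for all regions called in any of the 6 lists and for shared, HIF-1α-only and HIF-2α-only regions of the full lists, of the lists of equal length and, for the isoform-only classes, of both. The promoter part is 40.9%, 45.4% and 46.2% in the 3 HIF-1α-only bars, 29.3% and 29.5% in the shared bars and 6.82%, 11.6% and 0% in the HIF-2α-only bars.

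To see how far such classes carry over to a sample that did not define them, regions were chosen as called in 2 samples of one protein and in neither of 2 of the other, and were then looked up in the samples left out, one replicate number at a time. In lists of equal length, regions chosen as HIF-1α-preferring were called in 65.7%, 73.2% and 68.3% of cases by the left-out HIF-1α sample and in 16.5%, 34.2% and 19.1% by the left-out HIF-2α sample, for 740, 869 and 728 regions. Regions chosen as HIF-2α-preferring, 477, 457 and 508 of them, were called in 54.5%, 68.7% and 55.7% of cases by the left-out HIF-2α sample and in 17.6%, 28.9% and 22.6% by the left-out HIF-1α sample. The chosen protein led in all 6 cases. The mean lead was 45.8 ± 5.87 points for HIF-1α and 36.6 ± 3.39 points for HIF-2α (SD over 3 replicate numbers, which reuse samples and were not tested).

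The full lists behaved unevenly in the same check. The left-out HIF-1α samples called 51.7%, 83.5% and 56.2% of the HIF-1α-preferring regions, and the left-out HIF-2α samples 4.93%, 69.3% and 4.18%. Of the HIF-2α-preferring regions the left-out HIF-2α samples called 24.5%, 92.3% and 22.7%, and the left-out HIF-1α samples 22.0%, 46.2% and 25.4%. With replicate 3 left out the HIF-2α-preferring regions were thus called slightly more often with HIF-1α. Of all 23256 regions the HIF-1α samples called 12734, 16490 and 13680, and the HIF-2α samples 5326, 16106 and 4930. In replicates 1 and 3 the left-out sample thus called regions preferring its own protein about as often as regions in general. The left-out sample of the other protein called them less often than regions in general. The mean leads were 37.7 ± 20.4 and 15.3 ± 26.8 points. For HIF-2α-preferring regions, HIF-2α led with every replicate number only in the lists of equal length.

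The strongest HIF-1α-only regions lay both at gene starts and far from them. Of the 10 with the best mean rank among regions that were HIF-1α-only with both list lengths, 4 were promoters and 5 lay beyond 10 kb, near the promoter shares of their class (46.2%) and of all regions (29.4%). The promoter of CARNMT1, a methyltransferase that acts on carnosine (chr9:75028320-75028796), had 62, 122 and 58 fragments at the summit in HIF-1α replicates 1, 2 and 3. It had a peak in every HIF-1α sample and in no HIF-2α sample.

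Other HIF-1α-only regions of this group lay inside or between genes. A region in an intron of OTULIN, a deubiquitinase for linear ubiquitin chains (chr5:14665914-14666587, 1504 bp from its TSS), had 40, 69 and 46 fragments, and another OTULIN region 118 bp upstream of the TSS was also HIF-1α-only. IGFBP2, which encodes a binding protein for insulin-like growth factors, had a region 25.8 kb upstream (chr2:216606333-216607630) with 21, 72 and 31 fragments and, with FTH1, which encodes the ferritin heavy chain, the most HIF-1α-only regions of any gene in the full lists, 3 each. Others were an intron of the Src-family kinase gene LYN at 49.0 kb from its TSS, the start of ENSG00000275740 and 3 regions beyond 100 kb from any TSS, for which no gene is named. A core was found in 9 of the 10 regions, within 50 bp of the summit in 3, and no WT sample called any of the 10. Over all regions 25.0% had a core within 50 bp, and WT replicates 1, 2 and 3 called 0.00430%, 11.5% and 0.568%. How often a whole region holds a core was not determined over all regions.

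None of the strongest HIF-2α-only regions was a promoter. Of the 10 chosen by the same rule, 6 lay beyond 10 kb and 4 of these beyond 100 kb. The first, without a named gene (chr1:38301522-38303255), had 26, 234 and 28 fragments in HIF-2α replicates 1, 2 and 3. A region 8.88 kb upstream of the start assigned to ANKFN1 and within an intron of the same locus (chr17:56164320-56165864) had 23, 136 and 24. Replicate 2, the deepest sample, held the most fragments at each of these.

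Closest to a TSS was a region 1274 bp upstream of LPIN1 (chr2:11676169-11676783), with 14, 52 and 17 fragments. LPIN1 encodes a phosphatidate phosphatase of lipid synthesis. The other named genes were SH2D1B, an adaptor of lymphocytes (4.87 kb), the hair keratin-associated KRTAP21-3 (7.03 kb), DLGAP2, a scaffold of synapses (69.9 kb), and the adhesion molecule CADM2 (77.4 kb). Most of these genes are known from other tissues, and the nearest gene is an assignment by distance only. A core was found in all 10 regions, within 50 bp of the summit in 1, and again no WT sample called any. As above, the share of whole regions with a core was not determined over all regions.

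The strongest shared regions were mostly outside promoters as well. The first was a region 3.56 kb upstream of DEPP1, a stress-responsive gene, in an intron of RASSF4 (chr10:44980364-44983612), with 243, 739 and 270 fragments for HIF-1α and 368, 1864 and 248 for HIF-2α. These summits were several times higher than those of the isoform-only regions. Among the 10 with the best mean rank were regions of NDRG1, a stress-response gene long used as a marker of hypoxia (18.8 kb), SYNPO, which encodes an actin-associated protein (2.04 kb), CCN4, a secreted matrix-associated protein (25.7 kb), and HPCAL1, a calcium sensor (1.17 kb). The others were assigned to KCMF1, PDLIM4 and BASP1, and a pair had no named gene. None of the 10 was a promoter, 6 lay beyond 10 kb, and none differed between the proteins past the threshold below on the fold, while by fragments per depth 7 of the 10 were higher with HIF-2α. Of these 10, 8 were also called in 1 WT sample. Over all 2854 shared regions of the full lists, WT replicates 1, 2 and 3 called 0%, 20.5% and 0.666%. The strongest shared regions were thus called in untagged cells more often than shared regions in general.

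Signal was then compared at the 2854 shared regions, where all 6 samples have a value. A call in every sample is itself a filter. It left out 1902 and 2803 regions that all HIF-1α samples but only 2 or 1 of the HIF-2α samples called. In the reverse case it left out 209 and 71. The counts and differences below hold only for regions that passed it. The deposited fold enrichment at the summit was taken on the log2 scale, centred on each sample's median (before centring the mean of these medians was 0.28 higher with HIF-1α), and tested with limma. With Benjamini-Hochberg adjustment over all 2854 regions, 36 were higher with HIF-1α (1.26%) and 48 with HIF-2α (1.68%) at an adjusted p below 0.05. Quantile normalization in place of centring gave 47 and 40. When fragments per unit of depth replaced the fold, 361 (12.6%) and 561 (19.7%) passed, including 33 of the 36 and 47 of the 48. The differences called from the fold were large, from 1.59 to 2.80 and from 1.60 to 2.58 on the log2 scale. Single samples moved the counts: without one of HIF-1α replicates 1 and 2 or HIF-2α replicates 1 and 2, 11 to 21 regions were higher with HIF-1α, and without one of HIF-1α replicates 1 and 3 or HIF-2α replicates 1 and 2, 17 to 31 were higher with HIF-2α.

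The regions called in the 2 directions lay in different places. Of the 36 higher with HIF-1α, 17 were promoters (47.2%) and 10 lay beyond 10 kb (27.8%). Of the 48 higher with HIF-2α, 2 were promoters (4.17%) and 40 lay beyond 10 kb (83.3%). For comparison, 837 of all 2854 shared regions were promoters (29.3%) and 51.9% lay beyond 10 kb. The calls from fragments gave the same picture, with 47.9% and 9.80% promoters. Mean GC was 62.4% and 47.4% in the 2 sets called from the fold, and an HRE core lay within 50 bp of 44.4% and 27.1% of the summits. The part of base composition in the calls was not tested.

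By distance, the median difference at shared regions (log2, HIF-1α minus HIF-2α) was 0.16 at the 837 promoters, −0.12 between 1 and 10 kb, −0.15 between 10 and 100 kb and −0.36 at the 385 regions beyond 100 kb, against −0.06 over all 2854. The calls changed in step: 17 and 2 regions were higher with HIF-1α and with HIF-2α at promoters, 9 and 6 between 1 and 10 kb, 8 and 27 between 10 and 100 kb, and 2 and 13 beyond 100 kb. By fragments per depth the numbers were 173 and 55, 61 and 111, 109 and 245, and 18 and 150, so that the order between 1 and 10 kb was turned.

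The same was seen in single samples (plot of signal at shared regions). The median log2 fold of promoters minus that of the 1480 remote regions was 0.17, −0.01 and 0.07 in HIF-1α replicates 1, 2 and 3 and −0.30, −0.49 and −0.27 in the HIF-2α replicates. Promoters and remote sites were about equally enriched with HIF-1α, and promoters were weaker than remote sites in each HIF-2α sample. The means were 0.08 ± 0.09 and −0.35 ± 0.12 (SD, n = 3 each), which differ by 0.43 (exact permutation p = 0.100, the smallest possible). With fragments per depth it was 0.49 (exact permutation p = 0.100). Within bands of GC content the difference was 0.13 below 50% GC (exact permutation p = 0.3), 0.36 between 50 and 60% (p = 0.100) and 0.23 at 60% or more (p = 0.100). It was 0.38 at regions with a core at the summit and 0.37 at regions without.

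**Figure D4:**
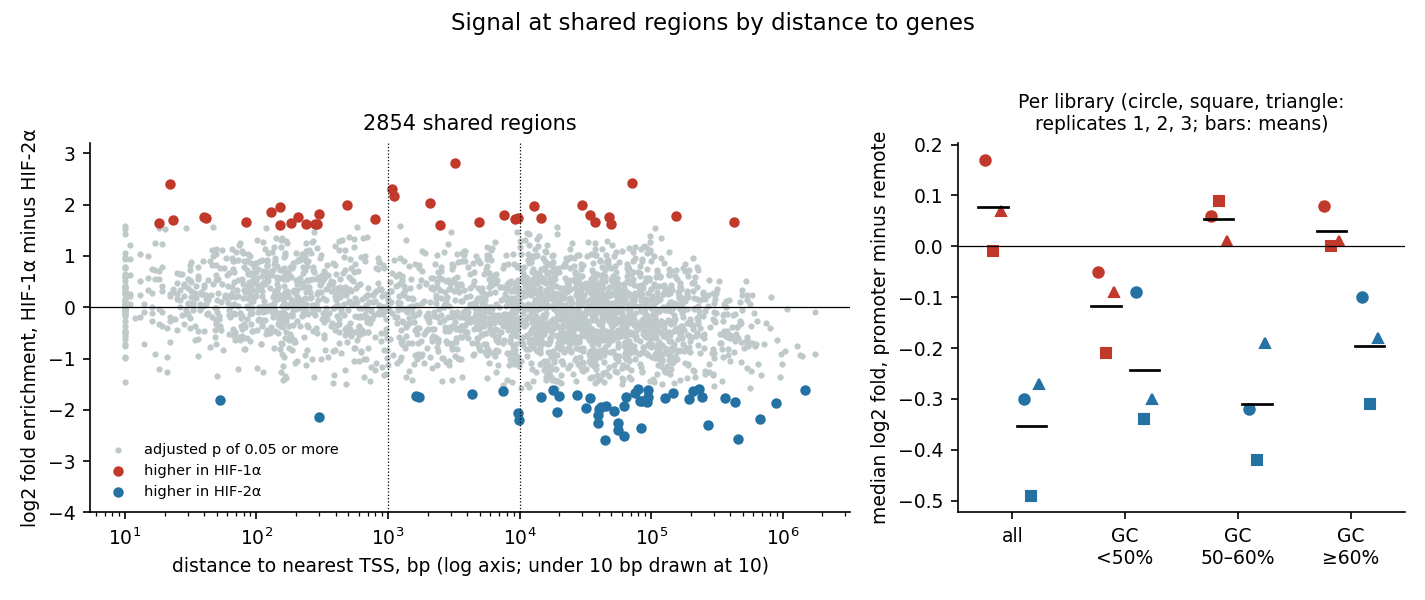
Left, difference in centred log2 fold enrichment (HIF-1α minus HIF-2α) of the 2854 shared regions against distance to the nearest TSS (log axis, bp, with lines at 1 and 10 kb), with the 36 regions higher with HIF-1α in red and the 48 higher with HIF-2α in blue. Right, median log2 fold of promoters minus that of remote regions in each sample, over all shared regions and in 3 bands of GC content; all 3 HIF-1α samples lie above all 3 HIF-2α samples over all regions.

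Regions more enriched with HIF-1α included several gene starts. The largest difference was at an intron of MEAK7, which has been linked to mTOR signalling (chr16:84501127-84502242, 3.26 kb from the TSS). Its fold enrichment was 60.5, 104 and 40.0 with HIF-1α and 9.06, 8.75 and 5.20 with HIF-2α. Every HIF-1α sample was several times above every HIF-2α sample, and the log2 difference was 2.80 ± 0.49 (SE, limma adjusted p = 6.84e-05). A region 1.10 kb upstream of MIB2, a ubiquitin ligase of the Notch pathway (chr1:1613864-1616416), had a fold of 30.6, 24.6 and 45.2 against 6.23, 6.45 and 5.24 (log2 difference 2.16, limma adjusted p = 0.00286).

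At the other regions among the 10 with the lowest p in this direction the groups did not overlap in fold, except at DCBLD2. There HIF-2α replicate 2 (33.0) exceeded HIF-1α replicate 3 (29.6). The margin was narrower at MBP (lowest HIF-1α 43.9, highest HIF-2α 26.7) and SEPTIN9 (16.8 and 8.99). These other regions included PDS5B, a regulator of cohesin (71.9 kb, 2.43), EEF1D, a subunit of the translation elongation complex (22 bp, 2.39), and ZBTB2, a zinc finger protein (1.07 kb). PLEKHG3 (2.09 kb), SEPTIN9, a cytoskeletal GTPase (492 bp), MBP, known as myelin basic protein (30.1 kb), DCBLD2, a membrane protein (12.8 kb), and TNS2, a tensin of focal adhesions (150 bp), followed at 1.95 to 2.03. In all, 3 of the 10 were promoters, 3 lay beyond 10 kb, and 5 were also called in 1 WT sample. WT replicate 2, which made most WT calls, called 20.5% of all shared regions.

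Regions more enriched with HIF-2α included remote ones assigned by distance to EGLN3 and CITED2, genes that regulate HIF itself. EGLN3 encodes the prolyl hydroxylase PHD3, which marks HIF-α for VHL, and CITED2 encodes a protein that competes with HIF-α for the coactivators CBP and p300. Both are known HIF targets. A region within an EGLN3 intron, 62.5 kb upstream of the nearest TSS (chr14:34012448-34014369), had 11, 19 and 8 fragments at the summit with HIF-1α and 63, 246 and 39 with HIF-2α, and its fold was 7.19, 14.4 and 6.94 against 48.2, 65.9 and 23.4. The HIF-2α samples were all higher, and the log2 difference was −2.51 ± 0.49 (SE, limma adjusted p = 0.000367).

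EGLN3 also had more HIF-2α-only regions in the lists of equal length than any other gene, 3, at 156 bp, 62.5 kb and 87.9 kb. At the first of these, its promoter (chr14:33950766-33952084), the full lists held a peak with 13 fragments in HIF-1α replicate 1, no peak in the other HIF-1α samples, and 16, 55 and 11 fragments in the HIF-2α samples. At CITED2 (83.2 kb upstream, chr6:139456311-139458456) the fold was 14.5, 25.4 and 11.6 with HIF-1α and 53.5, 153 and 38.4 with HIF-2α, all HIF-2α samples again being higher (log2 difference −2.35, limma adjusted p = 0.000906). A shared region 965 bp from the CITED2 TSS did not pass on either measure. Its difference was −0.23 in the fold (limma adjusted p = 0.865) and −0.24 in fragments per depth (adjusted p = 0.399). The other regions among the 10 were assigned to ENSG00000249209 (44.8 kb), KIAA1671 (55.9 kb), LIMCH1, which acts on actomyosin (39.8 kb), STC1, which encodes the secreted hormone stanniocalcin (56.0 kb), and HPS4, needed for lysosome-related organelles (9.94 kb), and 3 had no named gene. Their differences were −2.18 to −2.58, 9 of the 10 lay beyond 10 kb, none was a promoter, and 1 was also called in a WT sample. Of all shared regions WT replicate 2 called 20.5%.

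**Figure D5:**
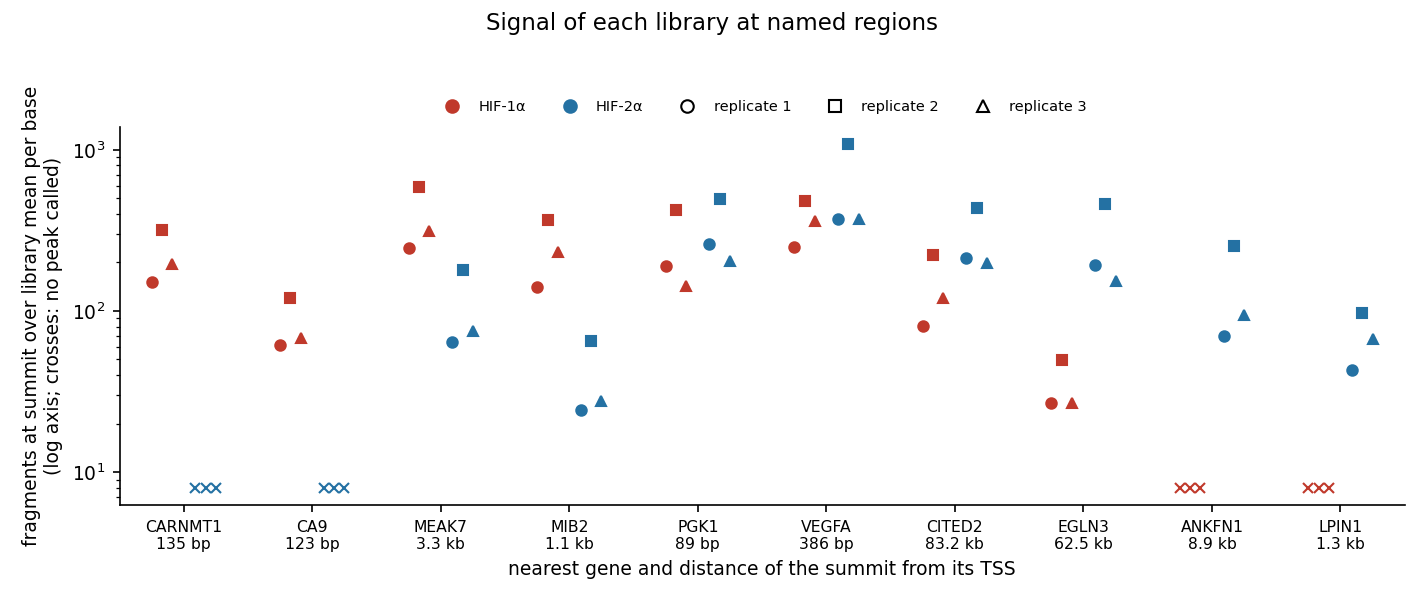
Fragments at the summit over the sample's mean coverage per base (log axis) at 10 regions, from HIF-1α-only through shared to HIF-2α-only, with HIF-1α samples in red and HIF-2α samples in blue; crosses near the axis mark samples without a peak and have no height. At the EGLN3 intron HIF-1α samples lie at 26.9 to 49.5 and HIF-2α samples at 154 to 459, while at the MEAK7 intron the order is turned, with 245 to 588 against 64.2 to 179.

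Known HIF target genes were then examined as 6 lists by role, with 85 genes in all. About as many had a region shared by both proteins as had none. In the full lists 75 genes had a called region within 10 kb of their TSS, 43 a shared region, 4 a HIF-1α-only region and none a HIF-2α-only region. Over all 19681 protein-coding genes the shares were 48.0%, 8.03%, 3.86% and 0.0915%. In lists of equal length the counts were 65, 40, 2 and 3, with shares over all genes of 28.0%, 6.03%, 1.66% and 0.391%. Genes with a HIF-1α-only region were CA9, SLC16A3, EPAS1 and POU5F1 in the full lists and CA9 and P4HA2 in the lists of equal length. Those with a HIF-2α-only region in the lists of equal length were EGLN3, PFKP and ADM. A gene can stand in several classes: SLC16A3, PFKP and ADM also had another region that was shared with both list lengths. The HIF-2α-only regions of PFKP and ADM were themselves shared in the full lists. Of the 43 genes with a shared region none passed the limma test on the fold in either direction (36 and 48 of 2854 regions over the genome), whereas with fragments per depth 11 genes had a region higher with HIF-1α and 12 a region higher with HIF-2α (361 and 561 of 2854). At an unadjusted limma p below 0.05 on the fold, 2 genes were higher with HIF-1α and 4 with HIF-2α.

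Glycolysis, the list most tied to HIF-1α in textbooks, held 22 genes, of which 20 had a called region and 19 a shared one. The median difference in log2 fold at their shared regions was 0.18, with a range of −1.21 to 0.77, against −0.06 over all shared regions, 0.04 over the 1374 shared regions within 10 kb of a TSS and 0.16 over shared promoters. None passed the limma test on the fold. At the promoter of ENO1, enolase, the summits held 186, 461 and 146 fragments with HIF-1α and 59, 250 and 42 with HIF-2α (log2 difference of the fold 0.23, limma adjusted p = 0.865, and of fragments per depth 1.20, adjusted p = 0.00136). The replicate 2 samples were the highest of each group, and HIF-2α replicate 2 exceeded HIF-1α replicates 1 and 3. TPI1, triose-phosphate isomerase, went the other way, with 37, 68 and 20 against 85, 228 and 32 at its promoter (−1.21 for the fold, limma adjusted p = 0.175, −1.45 for fragments per depth, adjusted p = 0.00394).

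By fragments per depth the other glycolytic genes with a region higher with HIF-1α were HK1 and HK2, the hexokinases, PFKFB3, a regulator of phosphofructokinase, and SLC16A3, a lactate transporter. Those with a region higher with HIF-2α were ALDOA, GAPDH and PFKP. PGK1, phosphoglycerate kinase, had 78, 163 and 42 fragments at its promoter with HIF-1α and 85, 266 and 52 with HIF-2α, with overlapping groups and a log2 difference of 0.23 in the fold (limma adjusted p = 0.865). The pathway thus carried sites of both proteins at 19 of 22 genes, with single enzymes leaning either way.

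The list for pH, mitophagy and stress held 11 genes, all with a called region and 8 with a shared one, and a median difference of 0.24 (range −1.36 to 1.57). CA9, the carbonic anhydrase at the cell surface that is used as a marker of hypoxia, had a region at its start (chr9:35673555-35674772, 123 bp from the TSS and over a coding exon) with 25, 46 and 20 fragments with HIF-1α and no peak with HIF-2α. It was HIF-1α-only with both list lengths. However, 1 sample of the knock-in line, with tagged endogenous HIF-2α, called a peak in this region. At the promoter of MXI1, a MYC antagonist, the difference in fold was 1.57 (limma adjusted p = 0.0521). At NDRG1 it was −1.36 (adjusted p = 0.110, limma), 1368 bp from the TSS. With fragments per depth, BNIP3, a mitophagy receptor, and MXI1 were higher with HIF-1α and CA12 and NDRG1 with HIF-2α.

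The list for oxygen sensing and feedback held 16 genes, 15 with a called region and 6 with a shared one (median difference −0.23, range −0.72 to 0.85). EPAS1, the gene of HIF-2α itself, was called at its promoter with HIF-1α only (chr2:46297064-46299357, 122 bp from the TSS), with 29, 11 and 13 fragments, though in lists of equal length not all 3 HIF-1α samples kept the call. By fragments per depth BHLHE41 and the histone demethylase gene KDM4C were higher with HIF-1α, and BHLHE40 and KDM4B were higher with HIF-2α. None of these passed the test on the fold.

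The list for angiogenic and vascular genes held 14, 10 with a called region and 6 with a shared one (median difference −0.28, range −0.95 to 0.60). At VEGFA, the growth factor of blood vessels, the fragments were 102, 185 and 108 with HIF-1α and 121, 581 and 94 with HIF-2α, in overlapping groups, with a difference in fold of −0.01 and in fragments per depth of −0.81 (limma adjusted p = 0.00854). At the promoter of ANGPTL4, an inhibitor of lipoprotein lipase, they were 50, 70 and 44 against 13, 37 and 10, with every HIF-1α sample higher (0.60 for the fold, 1.42 for fragments per depth, limma adjusted p = 0.000896). APLN, which encodes apelin, was higher with HIF-2α by fragments per depth.

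The matrix list held 12 genes, 11 with a called region and 4 with a shared one (median difference 0.23, range −1.25 to 1.05). P4HA2, a subunit of collagen prolyl hydroxylase, had 45, 97 and 41 fragments at its promoter with HIF-1α, 7 and 29 in HIF-2α replicates 1 and 2 and no peak in replicate 3. By fragments per depth PLOD1, a lysyl hydroxylase, was higher with HIF-1α and P4HA1 with HIF-2α (difference in fold −1.25, limma adjusted p for fragments per depth 0.00336). The list of growth and stemness genes held 10, 8 with a called region and none with a shared one. It included POU5F1, the gene of the pluripotency factor OCT4, which had a HIF-1α-only region in the full lists.

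Finally, the loci that the study itself singled out were looked up. TGFA, an EGF receptor ligand, had a region 43029 bp upstream (chr2:70595959-70598296) with 172, 497 and 157 fragments with HIF-1α and 350, 1750 and 263 with HIF-2α. The difference was −1.30 in the fold (limma adjusted p = 0.134) and −1.44 in fragments per depth (adjusted p = 0.000567). An intronic TGFA region 28.8 kb from the TSS had 88, 201 and 97 against 74, 339 and 63, with overlapping groups and a difference in fold of −0.20.

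PTPRN, a phosphatase-like protein of secretory granules, had a region over a coding exon 1204 bp from its TSS (chr2:219294668-219295947) with 61, 104 and 37 fragments with HIF-1α and 25 in HIF-2α replicate 2 alone, and this region was HIF-1α-only in the lists of equal length. Another PTPRN region, 2.65 kb upstream, was shared with both list lengths. It had 93, 197 and 79 fragments with HIF-1α and 47, 133 and 30 with HIF-2α. The difference was 1.07 in the fold (limma adjusted p = 0.255) and 0.74 in fragments per depth (adjusted p = 0.0208). HSD3B7, an enzyme of bile acid synthesis, had a region over a coding exon 898 bp from its TSS (chr16:30984993-30986908) with 20 and 49 fragments in HIF-1α replicates 1 and 2, no peak in replicate 3, and 87, 441 and 85 with HIF-2α. It was not among the shared regions. In a limma fit of all 5599 regions called in at least 2 of 3 samples of each protein, with uncalled values missing and so without HIF-1α replicate 3, its difference in fold was −1.44 (adjusted p = 0.229). At the PPFIA4 promoter the difference was −0.51 in the fold (limma adjusted p = 0.669) and 0.31 in fragments per depth (adjusted p = 0.431), so that its sign depended on the measure. A second PPFIA4 region, 4.05 kb from the TSS, had 70, 140 and 61 fragments with HIF-1α, 32 and 122 in HIF-2α replicates 1 and 2 and no peak in replicate 3 (0.68 in the fit of 5599 regions, limma adjusted p = 0.712, without HIF-2α replicate 3). PLXNA2 had no called region within 10 kb with either list length. Neither the PGK1 nor the PPFIA4 promoter passed the test on the fold.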

How the data were processed

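Cut&Run peak lists of 6 anti-V5 samples of 786-O cells were used, grouped by their titles. The authors aligned reads to hg38 with Bowtie2 2.3.4.1, called peaks with MACS2 (q of 0.01, gaps up to 400 bp, duplicates kept) for each sample against its own IgG sample, without pooling, and removed blacklisted regions with bedtools 2.28.0. The lists as deposited give position, fold enrichment over background (a ratio), and −log10 p and q. Fragments at summits and depth (lowest background) were recovered from the deposited fold and −log10 p, which gave whole fragments for 100% of peaks within 0.001. Depth was 0.253 to 0.536 fragments per base.

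Here peaks on chromosomes 1 to 22, X and Y of all 18 lists were merged (1 bp overlap, 2 or more lists), and regions called in 2 or more WT lists were left out. Distances are to GENCODE starts of protein-coding genes, and no gene is named beyond 100 kb. Fold enrichment at shared regions was tested with limma 3.58.1 in R 4.3.3 (Benjamini-Hochberg), checked on simulated data. Measures per sample were tested by exact two-sided permutation in Python 3.11.15 with SciPy 1.17.1. Named regions are the 10 with the best mean rank (isoform-only with both list lengths, shared) or the lowest p (each direction), beside fixed gene lists. Members, lists and rules were chosen with earlier results of these data known. Alternatives covered list length, q, WT filter, overlap, scaling, each sample left out and the replicate block. The difference between promoters and remote sites in signal, fragments with quantile normalization and gene lists at equal length were added after seeing the data. Some named items are not reported here.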

Additional observations from a re-analysis of the deposited data

Results flagged for a closer look

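The isoform-only regions were looked up in the lists of the domain swaps, which the comparison above does not use, with WT cells as the background. In a swap name the first isoform gives the DNA-binding and dimerization part and the second the disordered C-terminal part. The 80 regions that were HIF-1α-only with both list lengths were called in 70.0%, 83.8% and 45.0% of cases in the 3 HIF-2α/1α samples (mean 66.2%, SD 19.6) and in 71.2%, 80.0% and 58.8% in the HIF-1α/2α samples (mean 70.0%, SD 10.7), against 0%, 6.25% and 0% in WT. The 24 regions that were HIF-2α-only with both list lengths were called in 29.2%, 58.3% and 16.7% in HIF-2α/1α (mean 34.7%, SD 21.4) and in 66.7%, 87.5% and 79.2% in HIF-1α/2α (mean 77.8%, SD 10.5), and in 0% of each WT sample. The WT level is low by construction, because regions called in 2 or more WT samples had been left out. Over all 23256 regions the HIF-2α/1α samples called 56.8%, 70.5% and 43.9% and the HIF-1α/2α samples 43.9%, 55.4% and 41.3%. Each HIF-2α/1α sample thus called HIF-1α-only regions more often than regions in general, though by little in replicate 3. It called HIF-2α-only regions less often. The HIF-1α/2α means of 70.0% and 77.8% were both above the share of all regions in that line. The knock-in line with tagged endogenous HIF-2α called 2.50%, 16.2% and 17.5% of the HIF-1α-only regions (mean 12.1%) and 0%, 4.17% and 4.17% of the HIF-2α-only regions (mean 2.78%), against 12.6%, 33.0% and 25.0% of all regions. No difference between classes or lines was tested.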

How the results depend on the processing

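Promoter share, remote share, GC content, the Jaccard difference and the promoter minus remote signal kept their direction under every alternative run, at 4.40 to 8.38 points, −7.87 to −3.25 points, 1.67 to 3.44 points, 0.0228 to 0.241 and 0.36 to 0.49. The HRE excess difference of −0.593 was 2.70 in lists of equal length, 2.76 with these ranked by fold, −3.16 with a window of 100 bp, −1.51 with a −log10 q of at least 5, −1.30 with the motif TACGTG (exact permutation p = 0.100) and −1.92 to 0.301 with single samples left out. The depth difference was −0.220 to 0.321 with single samples left out. HIF-1α-only regions numbered 390 at equal length, 281 ranked by fold and 1018 to 3662 with a sample left out, HIF-2α-only regions 207, 161 and 49 to 197, and shared regions 1573 ranked by fold and 2862 to 3947 with a sample left out. Regions higher with HIF-1α numbered 361 from fragments, 455 from fragments with quantile normalization, 4 without centring and 11 to 34 with a sample left out. Those higher with HIF-2α numbered 561, 463, 0 and 17 to 48, and 29 with calls required in 2 of 3 samples. Of the gene lists 2 genes had a HIF-1α-only region and 3 a HIF-2α-only region at equal length, in place of 4 and 0. The cause of these changes was not tested. Same-numbered samples of the 2 proteins deviated together with correlations of only 0.047, 0.127 and 0.063 and were not treated as pairs, though each sample correlated best with its own number. A replicate block gave 43 and 52 regions in limma, and for the promoter share of 5.55 points an exact permutation p of 0.250, the smallest that 8 relabellings allow. The lowest −log10 p in lists of equal length was 16.5, 32.5 and 18.6 with HIF-1α and 6.43, 31.7 and 4.94 with HIF-2α. Within each protein this limit was higher the longer the full list, and calls below it are absent from the lists of equal length.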

Other observations

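The deposited lists offer a limited check of the labels, since a transgene without introns can leave fragments over the exons of its own gene. Of the 18 coding exons of HIF1A, 2, 0 and 2 overlapped a peak in HIF-1α replicates 1, 2 and 3 and 0 in every HIF-2α sample. Of the 16 coding exons of EPAS1, the gene of HIF-2α, 0 overlapped a peak in every HIF-1α sample and 0, 1 and 0 in HIF-2α replicates 1, 2 and 3. One WT sample had a peak over 1 HIF1A exon, so these counts are near the background.

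Enrichment over the 2854 shared regions had Spearman correlations of 0.56 to 0.58 between HIF-1α samples, 0.61 to 0.67 between HIF-2α samples and 0.44 to 0.53 over the 9 pairs of different proteins. These run across regions, which are not independent, and are given as a description.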
